A study of Homo sapiens with 6 samples.

Results

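The SWI/SNF complexes are chromatin remodelers that use ATP to slide or evict nucleosomes, so that transcription factors and the transcription machinery can reach the DNA. In mammals they are assembled around 1 of the ATPases SMARCA4 and SMARCA2 as canonical BAF, which carries an ARID1 subunit, as PBAF, which carries ARID2 and PBRM1 instead, or as a non-canonical form (ncBAF) that lacks both. Several subunits are tumour suppressors, and loss of ARID1A is a frequent event in endometriosis-related ovarian cancers. The genes described here are 10 subunits chosen by name, SMARCA4, SMARCA2, SMARCB1, SMARCC1, SMARCC2, SMARCD1, ARID1A, ARID1B, ARID2 and PBRM1, out of 47577 loci in the expression table. Each was found once in the table and as a locus of its own, and all 10 were expressed, meaning that 3 or more libraries reached a value of 10, as were 17568 loci in all.

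The libraries came from OVCAR3, an established line derived from a serous ovarian adenocarcinoma of high grade, which is a single line with no stated genetic change made for this experiment. Cells received the vehicle DMSO (3 libraries) or 200 nM THZ531, an inhibitor of the transcriptional kinases CDK12 and CDK13 (3 libraries), in both cases for 6 h. Polyadenylated RNA was sequenced, and the comparison asks how the mRNA of each subunit changed after this short inhibition. The labels do not say that replicates came from separate cultures, so p-values measure the spread between these libraries, which may be technical.

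Between 53054048 and 70986130 reads per library were assigned to genes, fewer in every THZ531 library than in any DMSO library. Values are reads per gene after the authors' division by the size factor of the library, named normalized reads here, and they are not corrected for gene length. All 8 markers of serous ovarian epithelium that were examined passed the minimum, with summed values of 436915 to 447836 in DMSO and 556080 to 568807 in THZ531. Most of that sum was KRT7, KRT8 and KRT18. Among the 8, PAX8, a transcription factor of the Müllerian lineage, fell by 3.18 on the log2 scale and was the 1 marker called. MUC16 was at -0.46 and WT1 at -0.17, the latter with groups that overlapped. The other 5 (KRT7, KRT8, KRT18, EPCAM and MSLN) were higher, from 0.08 for KRT7 to 0.58 for KRT8. Of 6 markers of leukocytes, endothelium and fibroblasts, 4 passed the minimum, and CD3E was at 0 in every library. The summed value of the 6 was 1147 to 1236 in DMSO and 2276 to 2554 in THZ531, most of it COL1A1. Of the 4, COL1A1 and VWF had log2 fold changes of 1.14 and 0.73. PTPRC and PECAM1 were at -0.39 and -0.16, with groups that overlapped. The part of these shifts in the results on the subunits was not tested.

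THZ531 lowered 2 of the 10 SWI/SNF subunit mRNAs past the threshold. SMARCC2, a scaffold subunit, fell by 37.1%, and ARID2, the DNA-binding subunit that marks PBAF, fell by 33.9%. At the other end ARID1A, the subunit that marks canonical BAF, was 32.0% higher in THZ531. Calls required a 1.5-fold difference or more (0.585 on the log2 scale) together with an unadjusted limma p no higher than 0.05. By this rule 2 of the 10 subunits were called, both lower, where 39.5% of all loci tested were called, 15.7% higher and 23.9% lower. The same 2 were called with edgeR and with DESeq2 on the recovered reads, which called 39.1% and 38.6% of all loci. The median log2 fold change of the 10 was -0.19, beside -0.01 over all loci.

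All 10 subunits nevertheless had a limma adjusted p of at most 0.05 at some fold, 3 higher and 7 lower, where 68.6% of all loci tested did, 34.6% higher and 34.1% lower. The groups of 3 libraries did not overlap for any of the 10, and 71.7% of all loci showed the same separation. Since bulk RNA was measured, fewer cells that express a gene and less of its RNA in each cell cannot be told apart.

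**Figure D1:**
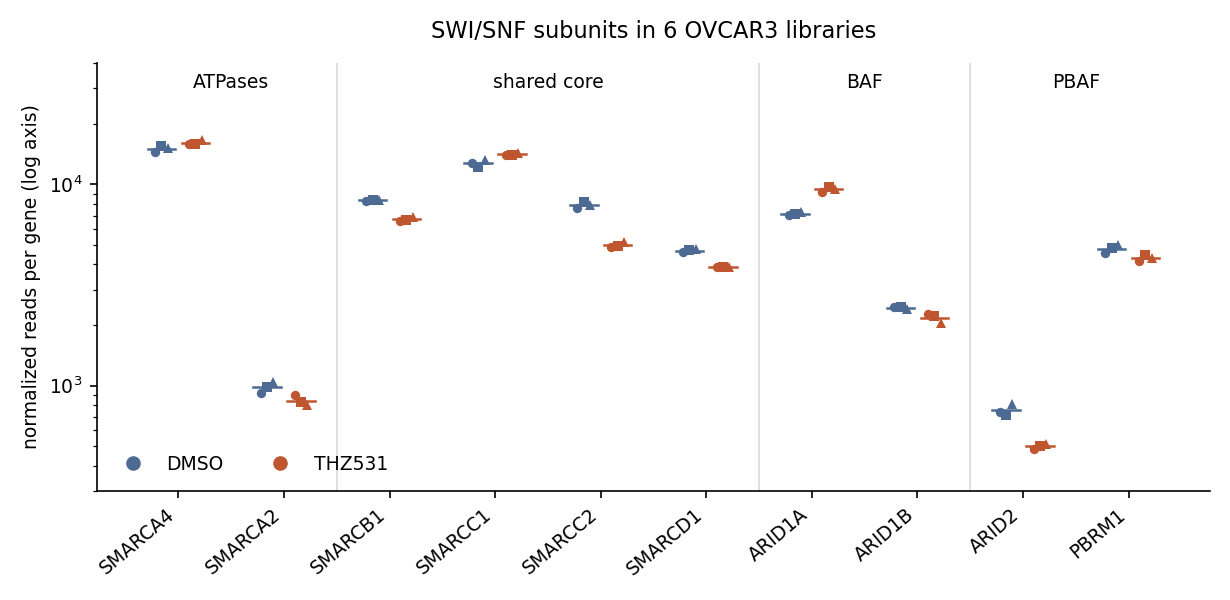
Normalized reads (log axis) of the 10 subunits in each library, with the genes on the horizontal axis by role, circles, squares and triangles for replicates 1 to 3 and bars for group means (DMSO blue, THZ531 orange). SMARCC2 lies at 7670 to 8191 in DMSO and at 4860 to 5164 in THZ531, and no subunit's groups overlap.

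The 2 ATPases, which supply the motor of the complex and exclude each other, were both short of a 1.5-fold difference. SMARCA4 had 14565, 15440 and 15116 normalized reads in the DMSO libraries and 15908, 15808 and 16594 in the THZ531 libraries. Its log2 fold change was 0.10 (SE 0.04, 95% interval 0.02 to 0.18, limma adjusted p = 0.023), a small difference that kept the groups apart, and the edgeR adjusted p was 0.070. SMARCA2 had 917, 981 and 1038 normalized reads in DMSO and 894, 825 and 796 in THZ531. The lowest DMSO library was close to the highest THZ531 library, and the log2 fold change was -0.22 (SE 0.08, 95% interval -0.38 to -0.06, limma adjusted p = 0.015).

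Of the core that BAF and PBAF share, SMARCC1 and SMARCC2 are related scaffold proteins, SMARCB1 contacts the nucleosome, and SMARCD1 joins the core early in assembly. SMARCC2 had 7670, 8191 and 7899 normalized reads in DMSO (7920 ± 261, SD, n = 3) and 4860, 4916 and 5164 in THZ531 (4980 ± 162, SD, n = 3). Every THZ531 library lay far below every DMSO library, with a log2 fold change of -0.67 (SE 0.04, 95% interval -0.76 to -0.58, limma adjusted p = 7.9e-10). Its paralog SMARCC1 was not called, with 12783, 12220 and 13186 normalized reads in DMSO and 14050, 13951 and 14288 in THZ531 (log2 fold change 0.15, SE 0.04, limma adjusted p = 0.002). The pair therefore moved apart.

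SMARCB1 had 8287, 8359 and 8363 normalized reads in DMSO and 6568, 6649 and 6916 in THZ531, with a log2 fold change of -0.31 (SE 0.04). SMARCD1 was at 4608, 4699 and 4763 in DMSO and at 3863, 3877 and 3891 in THZ531, with a log2 fold change of -0.27 (SE 0.04). Both were lower in each THZ531 library by more than the spread within groups, and neither reached a fold of 1.5. The locus of SMARCB1 partly overlaps DERL3 on the opposite strand, which had 45.5 to 73.9 normalized reads over the 6 libraries.

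Among the subunits that define canonical BAF, the paralogs ARID1A and ARID1B, which bind DNA and exclude each other, went in opposite directions without either being called. ARID1A had 7053, 7140 and 7256 normalized reads in DMSO and 9151, 9720 and 9452 in THZ531, and its log2 fold change was 0.40 (SE 0.04, 95% interval 0.32 to 0.48, limma adjusted p = 1.0e-07). This was the largest increase among the 10. For ARID1B the values were 2457, 2455 and 2388 in DMSO and 2262, 2209 and 2055 in THZ531, with a log2 fold change of -0.16 (SE 0.05, limma adjusted p = 0.011).

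Of the PBAF subunits, ARID2 had 738, 715 and 808 normalized reads in DMSO (754 ± 48.4, SD, n = 3) and 485, 500 and 511 in THZ531 (499 ± 13.0, SD, n = 3). The groups were well separated, but the log2 fold change of -0.59 (SE 0.08, 95% interval -0.77 to -0.42, limma adjusted p = 9.3e-06) lay so close to the threshold that the call was lost without DMSO replicate 3 (-0.54) or without THZ531 replicate 1 (-0.57). PBRM1, whose bromodomains bind acetylated histones, was at 4545, 4832 and 4995 in DMSO and at 4137, 4474 and 4324 in THZ531 (log2 fold change -0.15, SE 0.05, limma adjusted p = 0.0096). The ARID2 locus as deposited spans chr12:45682729-45938168 on hg38 and takes in LINC00938 and part of SCAF11 on the opposite strand. LINC00938 had 665, 721 and 663 normalized reads in DMSO and 996, 873 and 1024 in THZ531, opposite in direction to ARID2. Whether reads were counted by strand is not given in the sources used here, so reads from these genes cannot be told apart from those of ARID2 where they overlap.

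In the deposited coordinates the 10 genes span 15.5 kb (SMARCD1) to 435 kb (ARID1B). Of the 2 called, SMARCC2 spans 27.2 kb with no intron in its Ensembl canonical transcript (GENCODE v44) longer than 3257 bp. ARID2 spans 255 kb as deposited, and its canonical transcript has an intron of 80103 bp. The GENCODE v44 gene is shorter, at chr12:45729706-45908040. Whether span goes with the change was not tested.

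Direction depended on how the libraries were scaled, which shifts all genes together. With every library scaled to the same total, the median of all loci shifted by -0.24 (log2) and SMARCA4 and SMARCC1 turned to -0.14 and -0.10, whereas ARID1A stayed at 0.16. With that scaling the number of subunits called was again 2, beside 41.3% of all loci, as it was with the upper quartile as the reference, beside 39.4%. With RPL34, the mRNA of 1 ribosomal protein, taken as the reference, the median shifted by -0.49, all 10 subunits were lower and 7 were called, beside 49.0% of all loci. SMARCC2 and ARID2 were called lower under each of these scalings, at -0.91 and -0.84 with the same total and at -1.16 and -1.09 with RPL34. Which scaling follows the amount of RNA per cell was not tested.

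**Figure D2:**
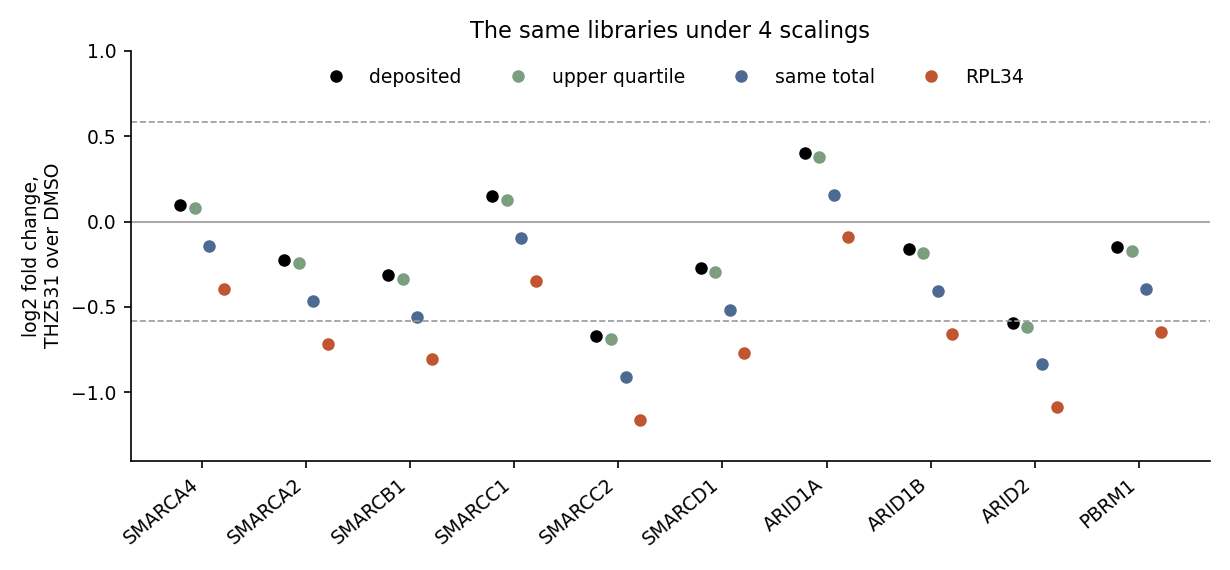
Log2 fold change, THZ531 over DMSO, of each of the 10 subunits under the deposited scaling and 3 other scalings of the same 6 libraries, with dashed lines at a fold of 1.5. SMARCC2 and ARID2 lie beyond the lower line in each case, and SMARCA4, SMARCC1 and ARID1A lie below 0 with RPL34.

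Ratios between related subunits within a library do not depend on that scaling. The reads in them are not corrected for gene length, so it is their change between the groups that is compared, not the levels of the 2 genes. The ratio of SMARCC1 to SMARCC2 was 1.67, 1.49 and 1.67 in the DMSO libraries and 2.89, 2.84 and 2.77 in the THZ531 libraries, a difference of 0.82 on the log2 scale. ARID1A to ARID1B went from 2.87, 2.91 and 3.04 to 4.05, 4.40 and 4.60, a difference of 0.56. In both pairs the ratio moved toward the first-named paralog.

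The ATPases showed the same order with a smaller shift, from 15.9, 15.7 and 14.6 reads of SMARCA4 per read of SMARCA2 in DMSO to 17.8, 19.2 and 20.8 in THZ531 (0.32 on the log2 scale). Of the 4 ratios that of ARID1A to ARID2 shifted most, from 9.55, 9.98 and 8.98 in DMSO to 18.9, 19.4 and 18.5 in THZ531, a difference of 0.99 on the log2 scale. Other pairings of BAF with PBAF subunits were not tested, and the PBAF subunits PBRM1, PHF10 and BRD7 had log2 fold changes of -0.15, 0.25 and 0.33. For none of the 4 ratios did the groups overlap, which adds nothing to the single genes. Each ratio sets a gene that was higher in THZ531 over one that was lower, both with separate groups, as 71.7% of all loci had. Each ratio had p = 0.1 in a two-sided exact permutation test (Benjamini-Hochberg adjusted p = 0.1 over the 4). No comparison of 3 with 3 libraries can go under that p. The pairs share ARID1A in 2 of the 4 ratios.

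**Figure D3:**
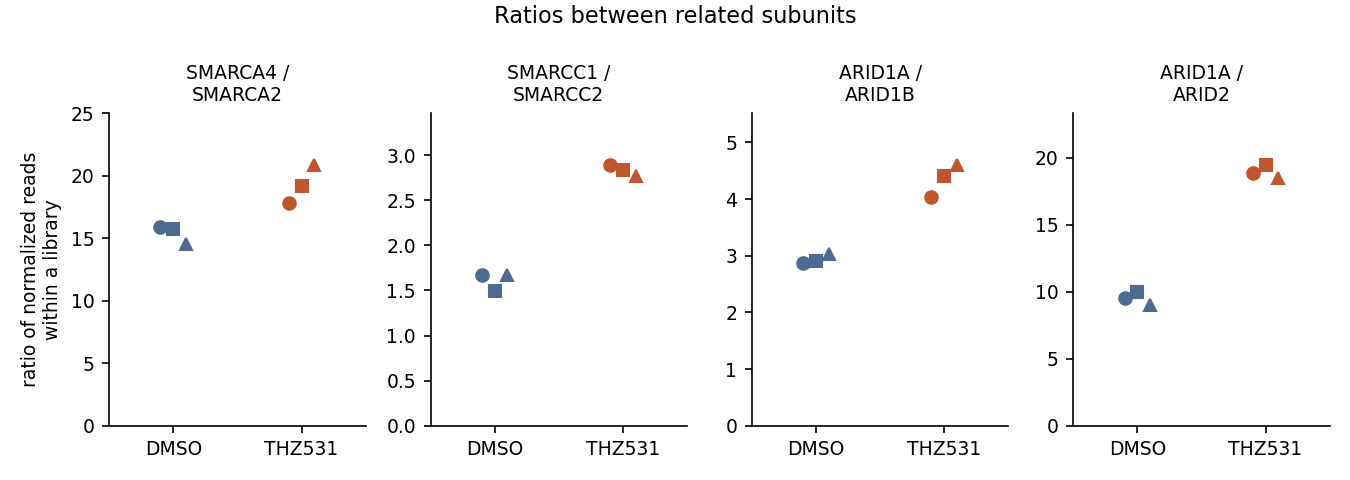
Ratio of normalized reads between 2 subunits within each library, one panel per pair, with points for the 3 DMSO and 3 THZ531 libraries and every axis starting at 0. The ratio of ARID1A to ARID2 lies between 8.98 and 9.98 in DMSO and between 18.5 and 19.4 in THZ531.

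The levels of different genes were ranked per kilobase of annotated exon (the union of GENCODE v44 exons of each gene). Reads were counted by the authors on another annotation, whose bounds differ for genes such as ARID2, SMARCA2 and SMARCA4, so the lengths are approximate. In DMSO, SMARCC1 had the highest level at 1670 ± 63.6 normalized reads per kb (SD, n = 3). SMARCA4 followed at 965 ± 28.4 and SMARCD1 at 957 ± 15.9, and these neighbours did not differ beyond their spread. SMARCC2 was at 863 ± 28.4, SMARCB1 at 504 ± 2.58, PBRM1 at 496 ± 23.6 and ARID1A at 449 ± 6.39, and of these SMARCB1 and PBRM1 overlapped.

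A second, low group held ARID2 at 60.8 ± 3.90, ARID1B at 53.0 ± 0.856 and SMARCA2 at 51.3 ± 3.18 normalized reads per kb, the last 2 again overlapping. In THZ531 the level of SMARCC2 per kb was 543 ± 17.6, below ARID1A at 592 ± 17.8, so the 2 changed places. The SMARCC1 level was 32.6 ± 1.99 times that of SMARCA2 in DMSO, but divided by the longest transcript instead of the exon union SMARCA4 came out above SMARCC1 and ARID2 lowest.

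The other genes of the same complexes gave a wider picture. Of 21 further subunits, 19 passed the minimum, 3 were called and all 3 were lower, beside 39.5% of all loci called, 15.7% higher and 23.9% lower. The median log2 fold change over the 19 was 0.16. BICRAL, a scaffold specific to ncBAF, had 487, 521 and 612 normalized reads in DMSO and 85.6, 90.9 and 104 in THZ531 (log2 fold change -2.52, SE 0.14, limma adjusted p = 2.4e-10). Its paralog BICRA was at 568, 614 and 557 in DMSO and at 341, 383 and 395 in THZ531 (-0.64, SE 0.10), a call that was lost without THZ531 replicate 1 (-0.57). The groups of both were far apart, and BICRAL changed more than any of the 10 subunits above.

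BCL11A, a zinc finger protein found with BAF, had 496, 541 and 524 normalized reads in DMSO and 249, 213 and 254 in THZ531 (log2 fold change -1.13, SE 0.11, limma adjusted p = 1.7e-07). The neuronal actin-related subunit ACTL6B and BCL11B, the paralog of BCL11A, did not pass the minimum, with at most 2.52 and 11.4 normalized reads in any library.

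Counted without the fold threshold, 10 of these subunits were higher and 4 lower at a limma adjusted p of at most 0.05, a rule that 68.6% of all loci passed, 34.6% higher and 34.1% lower. The 7 members of the ATPase module that passed the minimum, which bind the motor subunit, were all among the 10 with the deposited scaling. Their log2 fold changes ran from 0.17 to 0.58, and with RPL34 ACTL6A, SS18, BCL7A, BCL7B and BCL7C turned negative. ACTB, the actin that also serves as a subunit, came closest to the threshold at 0.58 (SE 0.04), followed by SS18L1 at 0.55 (SE 0.07). Both are named here after their values were seen, because leaving out DMSO replicate 1 brought them past the threshold (0.62 and 0.61). With DPF3 (-1.53) this raised the number of calls from 3 to 6. Without THZ531 replicate 1, 1 of the further subunits was called higher and 2 lower. DPF3, a histone reader of BAF, was close to the minimum, with 9.53, 16.7 and 21.5 normalized reads in DMSO and 3.78, 14.8 and 3.41 in THZ531, and its groups overlapped.

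**Figure D4:**
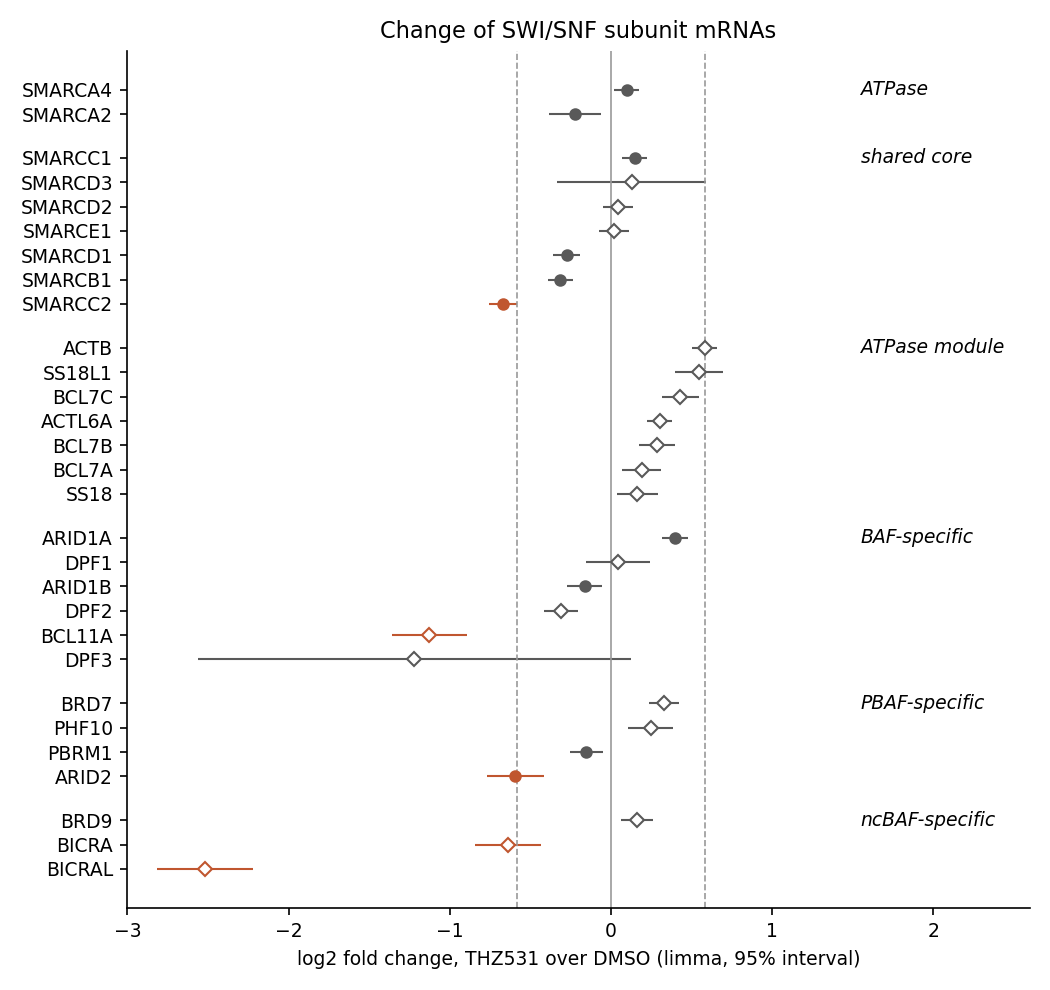
Log2 fold change, THZ531 over DMSO, with 95% intervals from limma for the 10 subunits (filled circles) and 19 further SWI/SNF subunits (open diamonds) by role, with called genes in orange and dashed lines at a fold of 1.5. With the deposited scaling, no subunit was called higher and 5 were called lower, from ARID2 at -0.59 to BICRAL at -2.52. Over all loci tested, 15.7% were called higher and 23.9% lower.

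The remodelers of other families, listed for comparison, showed calls in both directions. Of 57 loci that passed the minimum, 19 were called (33.3%), 9 higher and 10 lower, close to the 39.5% of all loci that were called, 15.7% higher and 23.9% lower. Their median log2 fold change was 0.22. In the ISWI family, which spaces nucleosomes, the 3 called genes were lower, among them BAZ1A (log2 fold change -0.82) and BAZ2B, from 421 ± 4.93 to 213 ± 41.9 normalized reads (SD, n = 3 each). A second locus with the symbol BAZ2B was close to the minimum and not called. Its means were 13.8 in DMSO and 11.7 in THZ531 (log2 fold change -0.21), and its groups overlapped. The CHD and NuRD genes included the largest increases, CHD2 from 1071 ± 71.6 to 4909 ± 281 normalized reads (SD, n = 3 each, log2 fold change 2.20, SE 0.06) and CHD6 (1.70), beside decreases of MTA1 (-0.89) and MBD3 (-0.69). In the INO80, SRCAP and TIP60 families INO80C (1.30) and SRCAP (0.64, counted jointly with TMEM265) were higher, and INO80B (-0.95) and MRGBP (-0.76) lower. With the same total 3 of these remodelers were called higher and 13 lower, where 9.38% of all loci were called higher and 32.0% lower. With RPL34 it was 3 higher and 19 lower, where 6.14% of all loci were called higher and 42.8% lower. Whether the SWI/SNF genes differ from these families was not tested.

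The table also lists loci without a gene symbol, and 19 of them lie wholly inside 7 of the 10 subunit genes. The other 17 did not pass the minimum and reached at most 11.4 normalized reads, 5 of them with 0 in every library. The 2 that passed lie in introns of SMARCA2 and SMARCC1, on the strand of the gene, and both were called higher, where 31.1% of the 2290 loci without a symbol that were tested were called higher. The one inside SMARCC1 passed only through its THZ531 libraries and so had to differ, which makes its direction no result. A transcript that stops inside an intron needs a cleavage and polyadenylation site, often announced by the hexamer AATAAA. Both ends were searched for it, and the end of the locus inside SMARCC1 did not hold it. Only the end of the locus inside SMARCA2 is shown, because it held the hexamer. It is given 5′ to 3′ on the strand of the gene from hg38, the last 60 bases of the locus and 20 bases beyond it, with AATAAA in capitals.
Locus inside SMARCA2, chr9:2045960-2046039, plus strand: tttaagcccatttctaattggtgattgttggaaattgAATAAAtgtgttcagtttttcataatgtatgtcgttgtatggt

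The locus inside SMARCA2 (GSHG0043124) spans 3026 bp at chr9:2042994-2046019. It lies in intron 4 of the Ensembl canonical transcript, an intron of 7328 bp, and begins 3093 bp after the 5′ splice site. It had 129, 128 and 148 normalized reads in DMSO (135 ± 11.1, SD, n = 3) and 690, 779 and 738 in THZ531 (736 ± 44.3, SD, n = 3). Each THZ531 library was several times higher than any DMSO library, with a log2 fold change of 2.44 (SE 0.11, 95% interval 2.20 to 2.68, limma adjusted p = 3.3e-11).

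Set against the SMARCA2 gene itself, the locus had 14.0%, 13.1% and 14.2% of the gene's normalized reads in the DMSO libraries and 77.2%, 94.4% and 92.7% in the THZ531 libraries. The gene's own value was lower by 0.22 on the log2 scale over the same libraries, so the locus and the gene moved in opposite directions. Whether the reads of the locus come from SMARCA2 transcripts was not tested. The AATAAA in capitals ends 17 bases before the end of the locus and is the last of 6 in it. In GENCODE v44, 4 SMARCA2 transcripts, all annotated as protein-coding, end within this locus or just beyond it. Most of these ends lie upstream of the hexamer in capitals, so they do not go with that site. On the strand of each locus, AATAAA stood in the last 40 bases of 10.7% of 18375 loci without a symbol and of 26.4% of the 2093 of these that were expressed. A match is a description of the sequence and does not show that the site was used.

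The locus inside SMARCC1 (GSHG0031247) spans 2963 bp at chr3:47601715-47604677 in intron 26, 5388 bp after the 5′ splice site. It was covered by 0, 2 and 6 reads in DMSO and by 25, 60 and 40 reads in THZ531, which correspond to 0, 1.86 and 4.79 and to 31.5, 68.2 and 45.5 normalized reads. The groups did not overlap, but the fitted log2 fold change of 4.21 (SE 0.66) depends on the pseudocount of 1, and the locus no longer passed the minimum when any of the THZ531 libraries was left out. It stayed at or below 0.49% of the SMARCC1 value in every library.

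**Figure D5:**
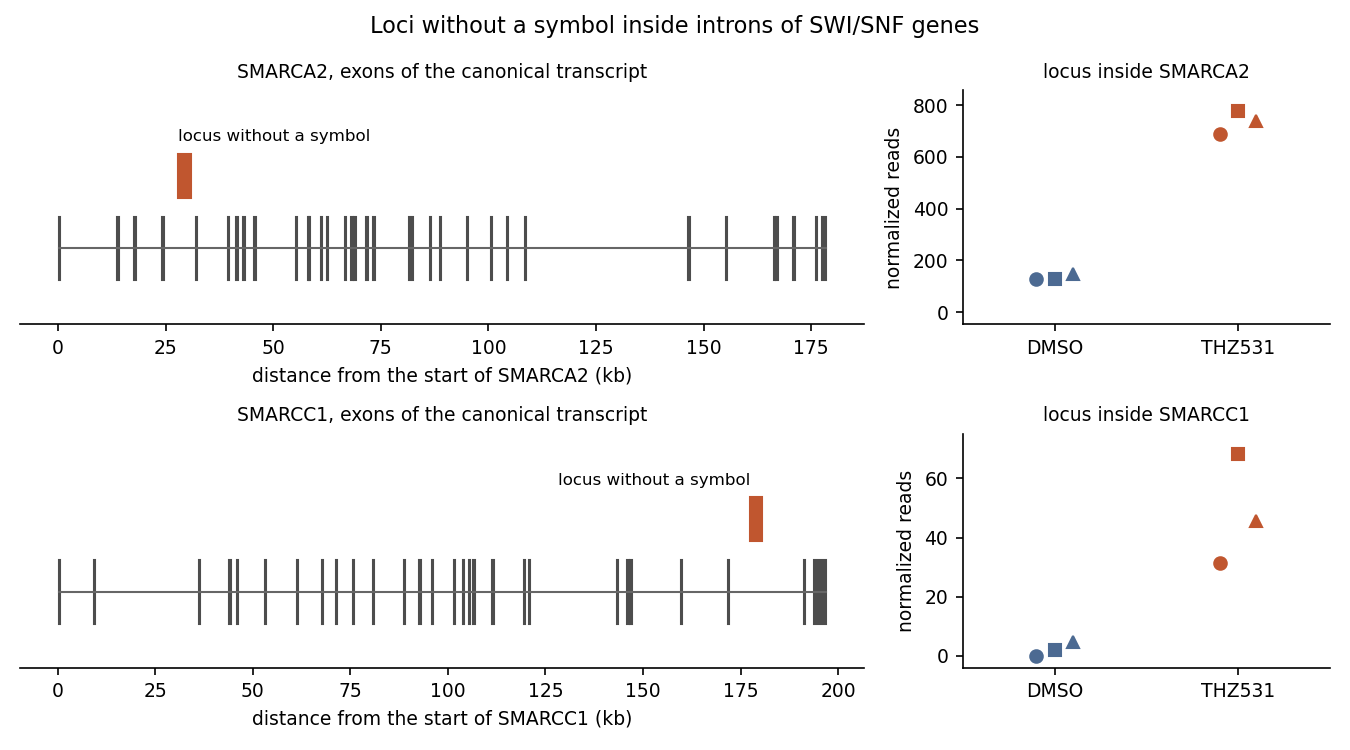
Left, exons of the Ensembl canonical transcript of SMARCA2 and SMARCC1 (dark bars, widened to at least 0.3 kb) by distance from the start of the gene in kb, with the expressed locus without a symbol in orange. Right, normalized reads of that locus per library, at 128 to 148 in DMSO and 690 to 779 in THZ531 inside SMARCA2.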

How the data were processed

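Libraries were made by the authors from polyadenylated RNA with a stranded kit. Per the labels and the study's methods, reads were aligned to hg38 with STAR (2.7.5a in the submitters' processing notes), counted on FAST DB genes and normalized with DESeq2. The deposited values are a signal, read counts that the authors divided by a size factor per library. Multiplied back by the size factor, 100% of the values came out whole (within 0.05 reads) in every library, so reads were recovered. The labels' treatment text names THZ1, whereas titles, descriptions and treatment labels name THZ531, which was followed.

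Values were tested as log2(value + 1) with limma 3.58.1 (trended variance, R 4.3.3, no covariates) on 17568 loci (10 or more in 3 or more libraries), with Benjamini-Hochberg adjustment over all of them. The fit was tested on simulated data. Alternatives used, on the recovered reads, DESeq2 1.42.0 and the quasi-likelihood test of edgeR 4.0.16, other pseudocounts, minima, thresholds and scalings, a replicate block, and each library left out in turn. Ratios were tested by exact permutation (scipy 1.17.1). Of the symbols, 24309 matched a single GENCODE v44 gene, and 99.9% of these overlapped it. Strand was taken from the order of identifiers, right for 99.0% of 22858 genes checked. The subunits and gene lists were chosen with earlier results of these data known. All 10 subunits were named, as were the other subunits called or under the minimum, up to 2 called genes per direction in each remodeler family, and expressed loci without a symbol inside subunits.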

Additional observations from a re-analysis of the deposited data

How the results depend on the processing

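The number of the 10 subunits called regulated was 2 in every alternative except with RPL34 as the reference (7), with a fold of at least 2 (0) and without 1 library (1 to 2). Of all loci tested, 39.5% were called in the main fit, 49.0% with RPL34, 41.3% with the same total and 23.0% at a fold of at least 2. The share was 31.0% without a minimum, 39.1% with a pseudocount of 10 and 37.7% to 38.7% without 1 library. It was 39.4% with the upper quartile, 39.1% with edgeR and 38.6% with DESeq2. Of the further subunits 3 were called, but 5 with RPL34, 4 with the same total, 4 without a minimum (1 of them higher), 2 at a fold of at least 2 and 3 to 6 without 1 library. Of the other remodelers 19 were called, but 3 at a fold of at least 2, 22 with RPL34, 16 with the same total, 18 with a pseudocount of 10, with the upper quartile, with edgeR and with DESeq2, and 16 to 19 without 1 library. The 2 called loci inside introns became 6 without a minimum, 1 with a minimum of 50 and 1 to 2 without 1 library, which follows from how many loci were tested. The ratio of the SMARCC1 to the SMARCA2 level per kb was 14.5 with the longest transcript in place of the exon union, where SMARCA4 (2604 normalized reads per kb) was highest and ARID2 (87.7) lowest. Scaling to the same total raised the share of calls that were lower from 60.4% to 77.3%, and RPL34 raised it to 87.5%.

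Some log2 fold changes of genes that were not called changed sign. Both scalings shift the median of all loci, by -0.24 with the same total and by -0.49 with RPL34, and genes with a smaller increase turn with them. With the same total these were SMARCA4 (-0.14), SMARCC1 (-0.10), SMARCD2 (-0.20), SMARCD3 (-0.11), SMARCE1 (-0.22), SS18 (-0.0775), BCL7A (-0.0500), DPF1 (-0.20) and BRD9 (-0.0813). With RPL34 they were SMARCA4 (-0.39), SMARCC1 (-0.35), ARID1A (-0.0925), SMARCD2 (-0.45), SMARCD3 (-0.36), SMARCE1 (-0.47), ACTL6A (-0.19), SS18 (-0.33), BCL7A (-0.30), BCL7B (-0.21), BCL7C (-0.0612), DPF1 (-0.45), PHF10 (-0.24), BRD7 (-0.16) and BRD9 (-0.33). SMARCE1 also turned with the upper quartile (-0.0019) and with edgeR (-0.0029). Without 1 library the range was -0.0118 to 0.0470 for SMARCE1, -0.0018 to 0.240 for SMARCD3 and -0.0303 to 0.117 for DPF1. Leaving out a library turned none of the 10 subunits.

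Libraries that share a replicate number did not deviate together (r = 0.0017, 0.019 and -0.039 over 17568 loci), and the labels tie the number to nothing. With the number as a replicate block, 6918 loci were called in place of 6948, and the counts stayed at 2 of the 10 subunits, 3 further subunits, 19 other remodelers and 2 loci inside introns. The subunits had between 385 and 18945 reads per library, fewest for ARID2, whose call lay close to the threshold. Counting error was not estimated apart from other spread. Reads were far fewer for DPF3 and the locus inside SMARCC1, which it limits most.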

Other observations

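A locus without a symbol on the opposite strand overlaps the first 113 bases of SMARCC1. It was looked at after its values were seen and is no part of the comparisons above. It had 1.59, 11.1 and 4.79 normalized reads in DMSO and 27.7, 27.3 and 41.0 in THZ531, while SMARCC1 itself had 12220 to 13186 and 13951 to 14288. Its groups did not overlap, as was so for 71.7% of all loci. The locus passed the minimum only through its THZ531 libraries, which makes its direction no result. No test beyond the fit of all loci was made.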
